A study of Homo sapiens with 12 samples.

Results

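The FKBPs and the cyclophilins are the 2 families of immunophilins, the proteins that carry tacrolimus and cyclosporine in the cell. The members described here are 32 genes chosen by gene family, 15 FKBPs and 17 cyclophilins, of 62262 genes in the count table. Each symbol matched 1 Ensembl identifier. Of the 32, 30 had enough counts to be tested (14 FKBPs and 16 cyclophilins), among 19784 tested genes in all. Poly(A) RNA was sequenced from a human podocyte line, epithelial cells of the kidney filter, made immortal with a temperature-sensitive SV40 T gene and differentiated by a shift to the temperature at which T is inactive. There were 4 groups of 3 libraries: cyclosporine A (CSA), tacrolimus (TAC) and voclosporin (VCS), each at 100 nM for 24 h, and the DMSO vehicle. All 4 groups share the 1 line and its T gene, so none of them stands for podocytes of several donors. The sources used here do not say what the replicates were, so the p-values measure only the spread between these libraries, which may be technical.

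Both families are peptidyl-prolyl isomerases: they turn the bond before a proline in a protein chain, a slow step of folding. Tacrolimus acts by binding the small FKBPs and cyclosporines act by binding cyclophilins. Either drug-protein complex docks on calcineurin, the phosphatase that releases NFAT transcription factors, and blocks it. Voclosporin is an analog of cyclosporine A. Most members have work of their own in protein folding in the endoplasmic reticulum, with the HSP90 chaperone, at the mitochondrion or in the spliceosome.

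Library totals ran from 28808213 to 36077072 counts, and no 2 libraries were identical. Mitochondrial transcripts took 9.68 to 13.4% of counts in the libraries numbered 3, against 5.82 to 8.12% in the others. The podocyte label is carried in part by the markers. NPHS1 had 1 to 11 counts in a library, while SYNPO lay at 41.9 to 67.3 and ACTN4 at 1345 to 1675 CPM (counts scaled to a common library size with TMM factors). The summed CPM of 12 podocyte markers was 1864 to 2152 in CSA, 1715 to 1921 in TAC, 1774 to 1951 in VCS and 1691 to 1927 in DMSO. Markers of other cells were also present. COL1A1 lay at 3294 to 5455 CPM, and 5 airway or basal epithelial markers summed to 6.29 to 7.77 CPM in CSA, 7.28 to 9.01 in TAC, 24.9 to 37.1 in VCS and 16 to 31.7 in DMSO, with none of the 5 at 0 in any library. Both CSA and TAC lay wholly below DMSO in this sum, and VCS overlapped with DMSO. Summed over 5 liver markers, of which ALB was the most abundant at 112.9 to 280.2 CPM, the levels were 131.5 to 297.5 CPM in CSA, 264.2 to 311.7 in TAC, 127.6 to 293.8 in VCS and 140.5 to 188.2 in DMSO, and TAC did not overlap with DMSO. Summed over 5 parietal epithelial markers they were 1935 to 2020 CPM in CSA, 1784 to 1891 in TAC, 1857 to 1999 in VCS and 1933 to 2113 in DMSO, again with no overlap of TAC and DMSO. The endothelial, immune and mesangial or fibroblast-like sums overlapped between each inhibitor and DMSO. The part of these differences in the values below was not tested.

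No immunophilin transcript passed in any of 8 comparisons. The threshold was a Benjamini-Hochberg adjusted p under 0.05 over all tested genes in edgeR's quasi-likelihood test. In CSA against DMSO 0 of 30 members passed, and 2 of all tested genes did (0.0101%). In TAC against DMSO the counts were 0 of 30 and 7 (0.0354%), and in VCS against DMSO 0 of 30 and 1 (0.00505%). DESeq2 also called 0 members in each. The smallest adjusted p of a member was 0.939 in CSA, 0.92 in TAC and 0.963 in VCS. An unadjusted edgeR p under 0.05 was reached by 1 member in CSA (3.75% of all tested genes), 0 in TAC (4.65%) and 0 in VCS (3.27%). DESeq2 counted 2 for CSA and 0 for both TAC and VCS. These fits leave out replicate number. With it as a block in edgeR, a pairing that the labels do not state, the counts were 5 in CSA (11.4% of all tested genes), 3 in TAC (13.1%) and 4 in VCS (11%), and 0 members passed. In bulk RNA, fewer cells of a type and less RNA per cell cannot be told apart.

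The intervals bound what could have gone unseen. The 95% interval of the log2 fold change lay within 1 log2 unit of 0, a 2-fold change, for 30 of 30 members in CSA and for 29 each in TAC and VCS. The exception in TAC and VCS was FKBP11. Within 0.5 log2 units, a 1.41-fold change, lay the intervals of 20 members in CSA, 23 in TAC, and 21 in VCS libraries. All these intervals cover the spread between libraries and are not adjusted for the number of genes. That spread includes any part shared by libraries of the same number.

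**Figure D1:**
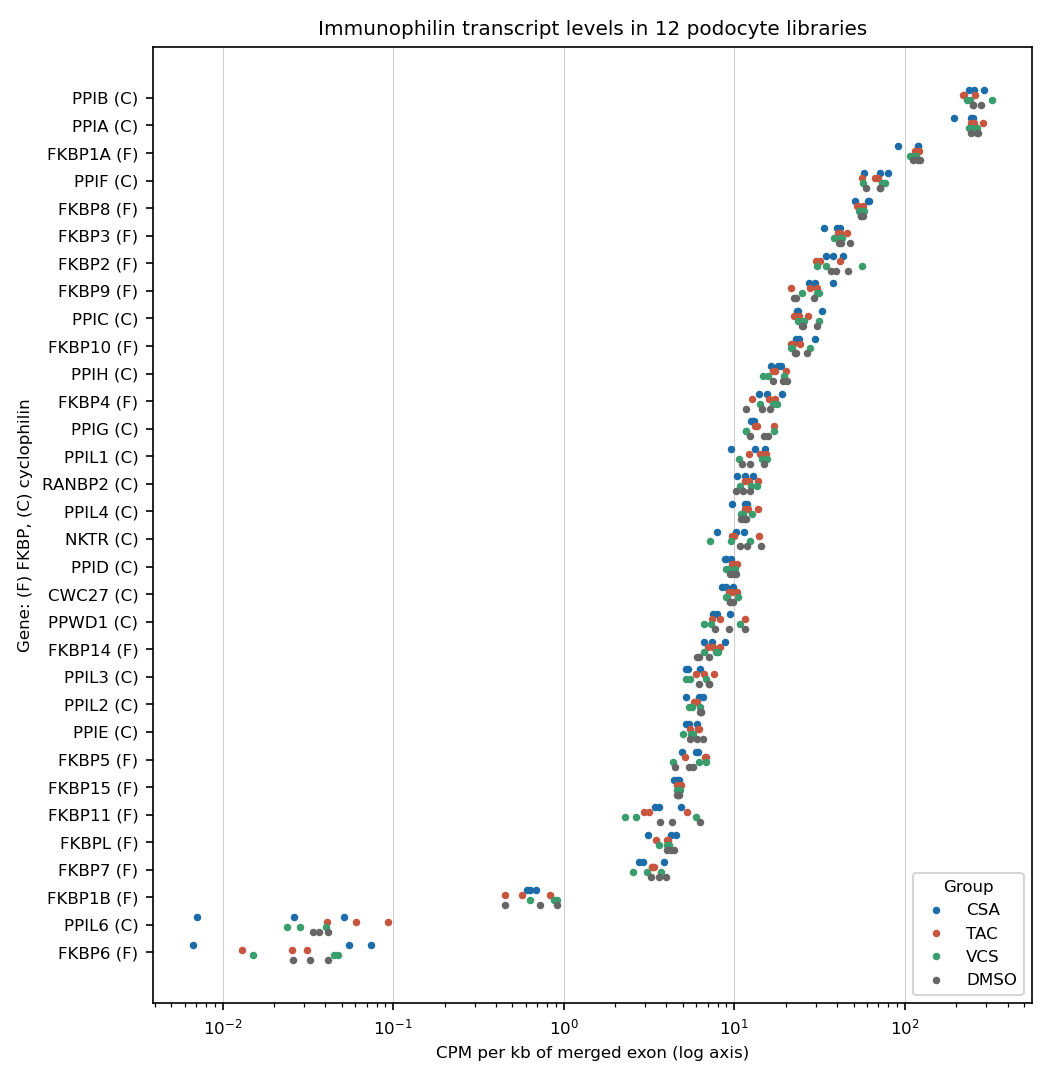
Level of each of the 32 members in each of 12 libraries, as CPM per kilobase of merged exon on a log axis, ordered by the mean over libraries; 1 point is 1 library, with CSA, TAC, VCS and DMSO drawn from top to bottom within a gene. The means span PPIB at 255.0 to FKBP6 at 0.0344, and the 4 groups of points lie on top of each other for most genes.

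Transcript levels spread over more than 3 orders of magnitude between members, compared here as CPM per kilobase of merged exon. PPIB and PPIA stood highest, at 255.0 and 250.2 averaged over 12 libraries, and their ranges overlapped. FKBP1A came next at 114.6, and its libraries lay below all those of PPIA and PPIB. PPIF followed at 67.6, FKBP8 at 55.9, FKBP3 at 41.4 and FKBP2 at 38.6. The lowest tested member was FKBP1B at 0.692. The order of close neighbours depends on the length used, at the top and below it. With the longest transcript in place of merged exons, PPIA stood at 495.4 and PPIB at 403.4. FKBP8 then stood at 87.8, above PPIF at 82.5, and FKBP2 at 62, above FKBP3 at 55.6. By merged exons PPIB ranked above PPIA in CSA, VCS and DMSO and below it in TAC. On that scale FKBP1A, PPIF and FKBP8 held ranks 3 to 5 in every group. Neighbours in the order did not overlap between PPIA and FKBP1A, FKBP1A and PPIF, FKBP8 and FKBP3, FKBP10 and PPIH, FKBP7 and FKBP1B, and FKBP1B and PPIL6, and all the others overlapped. FKBP6, an FKBP known from the testis, had 1 to 12 counts in a library and PPIL6 1 to 14, and neither was tested.

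Summed over each family on the same per-kilobase scale, cyclophilins held about 2 times the transcript of FKBPs in every group. The ratio of the sums was 2.03 ± 0.0611 in CSA, 2.08 ± 0.0808 in TAC, 2.1 ± 0.135 in VCS and 2.12 ± 0.0831 in DMSO (SD, n = 3 each). The ratio of PPIA to FKBP1A, the main carriers of cyclosporines and of tacrolimus, was 2.09 ± 0.0488 in CSA, 2.22 ± 0.113 in TAC, 2.22 ± 0.212 in VCS and 2.21 ± 0.143 in DMSO (SD, n = 3 each). The TAC libraries lay at 2.15 to 2.35, above the CSA libraries at 2.04 to 2.14, and the DMSO libraries, at 2.07 to 2.36, overlapped both. The 11 nuclear and spliceosomal cyclophilins made up 16.6 to 17.0% of the cyclophilin sum in TAC, against 15.3 to 15.8% in CSA, 14.9 to 15.9% in VCS and 15.6 to 16.3% in DMSO. With no correction for length these cyclophilins made up 27.4 to 28.7% in TAC, 25.5 to 29.6% in CSA, 24.7 to 27.2% in VCS and 27.0 to 28.6% in DMSO, so that TAC overlapped both CSA and DMSO. With the longest transcript as length TAC (15.2 to 15.8%) overlapped DMSO (14.4 to 15.3%). These ranges were picked out after the values were seen and were not tested. CSA replicate 3 stood apart in make-up. There FKBP1A made up 27.5% of the FKBP sum, against 29.8 to 34.7% in the other 11 libraries, and PPIA 28.1% of the cyclophilin sum, against 32.5 to 37.3%. The FKBPs of the endoplasmic reticulum made up 38.7% of the FKBP sum in that library and 27.9 to 34.9% in the others.

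The small drug-binding immunophilins differed from DMSO by at most 0.21 on the log2 scale in any inhibitor group, and none passed. The 0.21 is that of FKBP1B in VCS, and it was 0.45 without DMSO replicate 2 and -0.03 without DMSO replicate 1. FKBP1A (ENSG00000088832; chr20:1368978-1393172, minus strand, GENCODE 29 on GRCh38) encodes FKBP12, the receptor of tacrolimus, which also sits on ryanodine receptors and on type I receptors of the TGF-beta family. PPIA (ENSG00000196262; chr7:44796680-44824564, plus strand) encodes cyclophilin A, the main cytosolic receptor of cyclosporine. Their promoter windows are shown because these 2 genes encode the main receptors of the drugs. Each runs from 250 bases before to 50 after the RefSeq start (GRCh38.p14), chr20:1393005-1393304 on the minus strand for FKBP1A and chr7:44796431-44796730 on the plus strand for PPIA. Capitals mark the CCAAT motif, which reads ATTGG where it lies on the other strand, and the TATAAA motif.
FKBP1A: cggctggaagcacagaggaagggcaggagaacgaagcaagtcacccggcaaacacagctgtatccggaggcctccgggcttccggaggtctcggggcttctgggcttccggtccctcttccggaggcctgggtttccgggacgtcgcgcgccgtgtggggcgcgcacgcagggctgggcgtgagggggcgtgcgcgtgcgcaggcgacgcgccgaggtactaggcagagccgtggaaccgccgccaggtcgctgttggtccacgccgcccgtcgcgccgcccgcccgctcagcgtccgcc
PPIA: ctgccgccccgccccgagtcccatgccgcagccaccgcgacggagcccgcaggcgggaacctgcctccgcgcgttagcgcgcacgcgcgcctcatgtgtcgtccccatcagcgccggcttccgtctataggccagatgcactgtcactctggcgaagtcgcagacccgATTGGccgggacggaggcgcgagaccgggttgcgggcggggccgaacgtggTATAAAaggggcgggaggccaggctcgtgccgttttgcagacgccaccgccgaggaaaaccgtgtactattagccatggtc
The FKBP1A window holds neither motif, and the PPIA window holds 1 of each. Searched on both strands, TATAAA was found in 11.5% of all 35114 promoter windows and CCAAT in 34.6%. Of the 33 windows that matched 25 members, 1 held TATAAA and 16 held CCAAT. A match describes these letters only.

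FKBP1A was at 308.7, 309.5 and 234.9 CPM in CSA, 294.3, 304.2 and 312.6 in TAC, 298.1, 296.7 and 275.8 in VCS, and 305.8, 314.3 and 289.2 in DMSO. One library, CSA replicate 3, lay below all others, and the groups overlapped. The 95% intervals of the log2 fold change against DMSO were -0.32 to 0.14 in CSA, -0.23 to 0.23 in TAC and -0.29 to 0.17 in VCS. Its log2 fold change in CSA was -0.09 (SE 0.11) and 0.03 without CSA replicate 3. PPIA was at 1084, 1107 and 863.8 CPM in CSA, 1089, 1131 and 1265 in TAC, 1056, 1092 and 1167 in VCS, and 1088, 1190 and 1171 in DMSO. CSA replicate 3 was again the lowest library. The intervals for PPIA were -0.42 to 0.07 in CSA, -0.23 to 0.26 in TAC and -0.30 to 0.19 in VCS. In CSA its log2 fold change was -0.18 (SE 0.11) and -0.07 without CSA replicate 3. The direct comparison of TAC with CSA gave PPIA 0.19 (SE 0.11, edgeR adjusted p = 0.749) and FKBP1A 0.09 (SE 0.11, adjusted p = 0.891). Processed pseudogenes of PPIA held 0.224 to 0.444% of the counts of PPIA and these copies together, and FKBP1C with FKBP1A pseudogenes 0.113 to 0.336% for FKBP1A.

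FKBP1B (ENSG00000119782; chr2:24049701-24063681, plus strand), which encodes FKBP12.6, the partner of the cardiac ryanodine receptor, was scarce: FKBP1A held 122.4 to 261.8 times as much per kilobase. It was at 1.06, 1.02 and 1.16 CPM in CSA, 0.756, 1.39 and 0.952 in TAC, 1.54, 1.06 and 1.47 in VCS, and 0.76, 1.54 and 1.22 in DMSO. These values rest on 25 to 50 counts a library, and the DMSO libraries alone span the range of the CSA and TAC groups but for 1 TAC library just under them. Its interval in TAC against VCS, -1.04 to 0.28, was the one between inhibitors that reached past a 2-fold change. Its log2 fold change against DMSO was -0.12 in CSA, and -0.35 without DMSO replicate 1 or 0.13 without DMSO replicate 2. In TAC it was -0.18, and -0.45 without TAC replicate 2 or 0.08 without DMSO replicate 2.

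PPIF (ENSG00000108179; chr10:79347469-79355337, plus strand) encodes cyclophilin D, the cyclophilin of the mitochondrial matrix that sensitizes the permeability transition pore to calcium. It was at 213.0, 192.4 and 153.6 CPM in CSA, 177.7, 186.0 and 149.9 in TAC, 197.1, 205.2 and 151.4 in VCS, and 190.5, 192.4 and 159.0 in DMSO. In each group 1 library, that numbered 3, was lowest, and the groups overlapped. PPIF differed from DMSO by 0.04 in CSA, -0.08 in TAC and 0.03 in VCS (log2, SE 0.15 each).

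**Figure D2:**
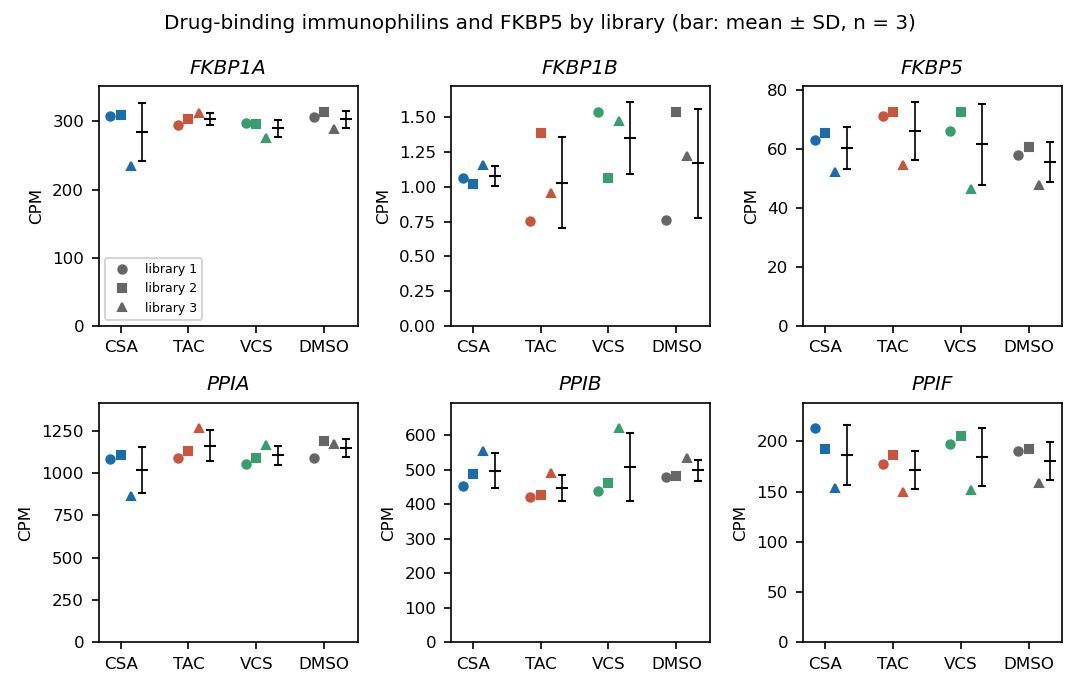
CPM of FKBP1A, FKBP1B, FKBP5, PPIA, PPIB and PPIF in each library (circle, square and triangle for libraries 1, 2 and 3), with the mean ± SD of each group (n = 3) beside the points. The groups overlap in all 6 panels, and library 3 (triangle) is the lowest of its group in every group for FKBP5 and PPIF and the highest for PPIB.

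Among the 8 members of the endoplasmic reticulum, those nearest to a difference were FKBP9 and FKBP14. These proteins fold secreted and matrix proteins: FKBP14 and FKBP10 act on procollagen, and PPIB, cyclophilin B, works in the complex that hydroxylates prolines of collagen chains. Of the 8, 3 were above 0 in CSA (median log2 fold change -0.01), 2 in TAC (-0.13) and 3 in VCS (-0.01). Without CSA replicate 3 the median in CSA was -0.14, and without the libraries numbered 3 the 3 medians were -0.06 for CSA, -0.09 for TAC and -0.10 for VCS, so that TAC did not stand apart. The median over all tested genes was 0.00 in each of these comparisons, and 49.0 to 50.9% of genes were above 0. None of the 8 passed.

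FKBP9 (ENSG00000122642; chr7:32957404-33006931, plus strand) was at 154.5, 141.1 and 195.5 CPM in CSA, 157.2, 144.6 and 111.0 in TAC, 158.1, 162.0 and 129.6 in VCS, and 151.9, 115.9 and 119.3 in DMSO. Its log2 fold change in CSA was 0.34 (SE 0.16, edgeR adjusted p = 0.939) and was 0.20 without CSA replicate 3, the highest library. The value was 0.45 without CSA replicate 2, 0.48 without DMSO replicate 1 and 0.14 without all libraries numbered 3. FKBP14 (ENSG00000106080; chr7:30010587-30026684, minus strand) was at 39.5, 35.4 and 47.3 CPM in CSA, 43.7, 40 and 37.4 in TAC, 42.7, 41.4 and 35.6 in VCS, and 38, 32.2 and 33.1 in DMSO. Of the 3 inhibitors' libraries, 1 in CSA, 1 in TAC and 1 in VCS lay under the highest DMSO library, so the groups overlapped. FKBP14 was the member with the smallest p above 0 in both TAC and VCS, with log2 fold changes of 0.24 in CSA, 0.23 in TAC and 0.21 in VCS (SE 0.12 each). These 3 comparisons share the DMSO libraries. In CSA the value was 0.12 without CSA replicate 3 and 0.32 without DMSO replicate 1.

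PPIB (ENSG00000166794; chr15:64155812-64163205, minus strand) was at 452.5, 486.7 and 553.1 CPM in CSA, 421.5, 427.5 and 491.5 in TAC, 439.3, 461.1 and 620.2 in VCS, and 478.8, 481.8 and 534.2 in DMSO. The 2 lowest libraries were TAC replicates 1 and 2, and TAC replicate 3 lay within the DMSO range. In TAC the log2 fold change was -0.16 (SE 0.13, edgeR adjusted p = 0.92). FKBP2, which encodes FKBP13, was at 55.1, 60.8 and 69.8 CPM in CSA, 48.5, 51.2 and 67 in TAC, 49.1, 55.7 and 89.7 in VCS, and 59.1, 63.9 and 74.9 in DMSO. The spread within VCS was wider than the distance between any group means. The collagen chaperone FKBP65 is encoded by FKBP10, which was at 98.5, 103.0 and 126.8 CPM in CSA, 92.3, 94.7 and 104.1 in TAC, 91.7, 92.7 and 118.7 in VCS, and 97.6, 98.5 and 113.3 in DMSO. Replicate 3 was highest in each group. FKBP7 and PPIC, which encodes cyclophilin C, differed from DMSO by -0.21 to 0.00 (log2) in the 3 comparisons.

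FKBP11 (ENSG00000134285; chr12:48921518-48926474, minus strand), a membrane-anchored FKBP of secretory cells, had the largest fold between libraries of 1 group among the tested members. It was at 17, 17.9 and 24.3 CPM in CSA, 15.7, 14.6 and 26.1 in TAC, 13.2, 11.4 and 29.6 in VCS, and 18.3, 21.4 and 31.3 in DMSO. Within VCS the libraries differed 2.6-fold, against 1.4-fold between the highest and lowest group means. The log2 fold change in VCS was -0.39 (SE 0.33, interval -1.11 to 0.33). It was -0.94 without VCS replicate 3 and -0.14 without DMSO replicate 3, with edgeR adjusted p-values of 0.321 and 1.

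The members that work with HSP90 or carry tetratricopeptide (TPR) repeats include FKBP4 and FKBP5, co-chaperones of steroid hormone receptors. FKBP5 (ENSG00000096060; chr6:35573585-35728583, minus strand), also a classical glucocorticoid receptor target, was at 63.1, 65.4 and 52.3 CPM in CSA, 71.1, 72.5 and 54.7 in TAC, 66.1, 72.6 and 46.3 in VCS, and 57.9, 60.8 and 47.9 in DMSO. In each inhibitor group 2 libraries lay above all DMSO libraries and 1 within or under their range. FKBP5 had the highest log2 fold change of any member in TAC, 0.25 (SE 0.17, interval -0.11 to 0.61, edgeR adjusted p = 0.92). It was 0.12 in CSA and 0.15 in VCS (SE 0.17 each). Leaving out 1 library at a time gave 0.16 (without DMSO replicate 3) to 0.37 (without TAC replicate 3) in TAC. The same gave 0.02 (without DMSO replicate 3) to 0.21 (without CSA replicate 3) in CSA, and 0.01 (without VCS replicate 2) to 0.31 (without VCS replicate 3) in VCS. FKBP4 differed by 0.20 in CSA, 0.12 in TAC and 0.20 in VCS (SE 0.16 each). FKBP8, a mitochondrial outer membrane protein, FKBPL and PPID, cyclophilin 40, lay between -0.13 and 0.05 in the 3 comparisons. Of 5 tested members of this set, 3 were above 0 in each comparison and none passed.

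The 12 nuclear and spliceosomal members were mostly below 0 in CSA, and none passed. In CSA 11 of 12 were below 0 (median -0.11), in TAC 7 (median -0.01) and in VCS 9 (median -0.12), beside 49.0, 49.0 and 50.9% of all tested genes above 0. The members are nearly all cyclophilins that ride on the spliceosome, and the 3 counts share the DMSO libraries. Without CSA replicate 3, again 11 of the 12 were below 0 in CSA (median -0.10), and without all libraries numbered 3 the count was 9 in CSA, 8 in TAC and 10 in VCS. For the whole cyclophilin family, 14 of 16 tested members were below 0 in CSA (median -0.09), 9 in TAC (-0.01) and 11 in VCS (-0.06). Without the libraries numbered 3 those counts were 12, 11 and 13. Of 14 tested FKBPs, 8 were below 0 in CSA (median -0.05), 8 in TAC (-0.04) and 7 in VCS (-0.01). In CSA the FKBP median was 0.00 without CSA replicate 3, with 7 below 0, and 0.02 without the libraries numbered 3, with 6 below 0.

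PPIL3 (ENSG00000240344; chr2:200870907-200889303, minus strand), a cyclophilin of the spliceosome, was at 15.2, 18.3 and 15.5 CPM in CSA, 17.3, 19.3 and 22.3 in TAC, 16.1, 15.1 and 19.8 in VCS, and 18.1, 20.8 and 20.6 in DMSO. One CSA library lay within the DMSO range, and 2 lay under it. This was the member with an unadjusted p under 0.05, at 0.0498 by edgeR in CSA (log2 -0.28, SE 0.13, adjusted p = 0.939). NKTR (ENSG00000114857; chr3:42600614-42648741, plus strand), a large nuclear cyclophilin with arginine-serine repeats, was at 137.1, 176.9 and 198.3 CPM in CSA, 168.0, 172.2 and 243.4 in TAC, 165.4, 125.6 and 213.2 in VCS, and 188.1, 204.8 and 250.4 in DMSO. It had the lowest log2 fold change in CSA, -0.33, and was at -0.14 in TAC and -0.35 in VCS (SE 0.20 each). Replicate 3 was highest in each group, and the groups overlapped. In VCS the value was -0.18 without VCS replicate 2, -0.22 without DMSO replicate 3 and -0.56 without VCS replicate 3. In CSA it was -0.19 without CSA replicate 1 and -0.20 without DMSO replicate 3. In TAC it was -0.01 without DMSO replicate 3, -0.04 without TAC replicate 1, -0.06 without TAC replicate 2, -0.23 without DMSO replicate 1 and -0.33 without TAC replicate 3.

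FKBP3, the nuclear FKBP25, was at 94.7, 90.4 and 75.9 CPM in CSA, 91.3, 94.4 and 103.2 in TAC, 86.4, 94.2 and 96.6 in VCS, and 93.3, 107.9 and 95 in DMSO. Its log2 fold change in CSA was -0.18 (SE 0.10), and -0.09 without CSA replicate 3. PPIL4, a spliceosomal cyclophilin with an RNA-binding domain, was at 31.3, 25.6 and 30.5 CPM in CSA, 32, 30.4 and 36.3 in TAC, 29.1, 29.8 and 33.6 in VCS, and 30.2, 31.2 and 28.8 in DMSO. No group of either gene stood clear of DMSO. PPIE was at 41.8, 48.6 and 43.5 CPM in CSA, 44.6, 49.5 and 50 in TAC, 44.8, 40.4 and 46.5 in VCS, and 44.3, 52.7 and 48.7 in DMSO. PPIEL, a copy of PPIE, held 12.7 to 21.9% of the counts of both, so the level of PPIE depends on how the counting split them. PPIH, CWC27, PPIG, PPWD1 and PPIL1, also of the spliceosome, lay between -0.21 and 0.11 against DMSO (log2) in the 3 comparisons.

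Libraries that did not overlap with DMSO were found for 1 member in TAC (12.4% of all tested genes in either direction), 1 in VCS (7.48%) and 0 in CSA (9.87%). The gene was PPIL2, a nuclear cyclophilin with a U-box, in both. It was at 39.9, 47.5 and 50.2 CPM in CSA, 44.5, 45.1 and 46.5 in TAC, 41.6, 43.1 and 48 in VCS, and 48.5, 48.9 and 48.8 in DMSO. The 3 DMSO libraries were close together (SD 0.226 CPM), and the log2 fold changes were -0.10 in TAC and -0.14 in VCS (SE 0.09 each). RANBP2, the nuclear pore protein with a cyclophilin domain, differed by 0.04 in CSA, 0.14 in TAC and 0.13 in VCS (SE 0.12 each). The RGPD genes, recent copies of RANBP2, held 27.6 to 41.0% of the counts of both, so this value is uncertain. FKBP15, a cytoskeletal member outside these sets, had the narrowest range of group means (1.02-fold), at 49.3 to 54.0 CPM over all 12 libraries.

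**Figure D3:**
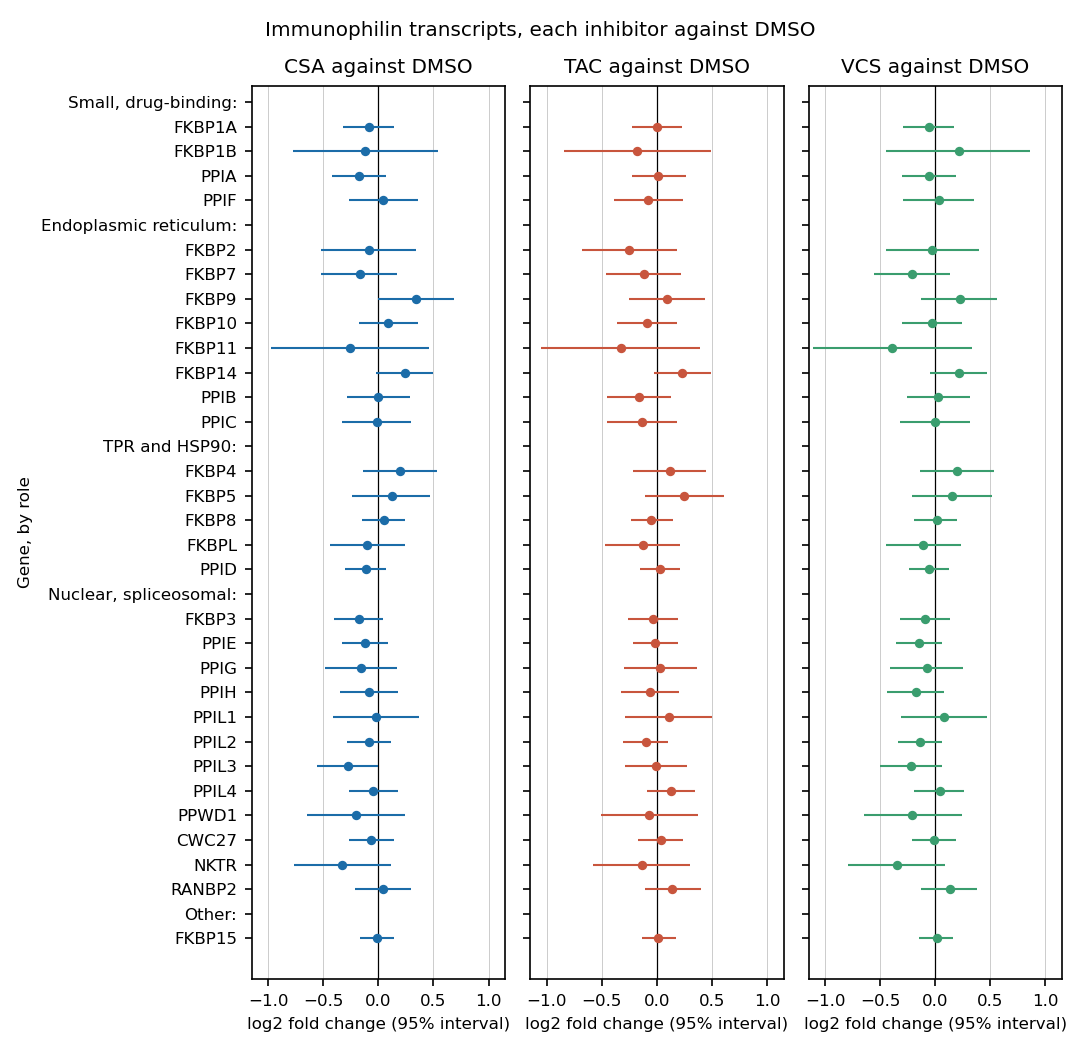
Log2 fold change of 30 tested members in CSA, TAC and VCS, each against DMSO, with its 95% interval (points and bars; edgeR), grouped by role. The points run from -0.39 (FKBP11 in VCS) to 0.34 (FKBP9 in CSA), and all intervals but that of PPIL3 in CSA, whose upper end rounds to 0.00, cross 0.

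Between inhibitors the question is whether a compound that binds FKBPs leaves another pattern than 2 that bind cyclophilins. All 3 were given at the same dose and time, and 3 pairs were compared. These counts do not measure how far each compound inhibited calcineurin at that dose. Tacrolimus alone stands for FKBP binding, so binding class and compound cannot be told apart. In TAC against CSA 0 of 30 members passed with edgeR and with DESeq2 (0.0303% of all tested genes by edgeR), in TAC against VCS 0 (0.0253%) and in VCS against CSA 0 (0.0101%). An unadjusted p under 0.05 was reached by 0 members in each with either tool, beside 7.52, 3.63 and 2.54% of all tested genes. The smallest adjusted p-values of a member, over all genes within a pair, were 0.677, 1 and 1. TAC against the mean of CSA and VCS, the contrast of the 2 binding classes, also gave 0 members (0.0455%; smallest adjusted p 0.78), and 0 at an unadjusted p under 0.05 (6.39%). A test of any difference among the 4 groups gave 0 members too (0.0505%; smallest adjusted p 0.991), and 0 at an unadjusted p under 0.05 (3.9%). DESeq2 gave 0 members in both.

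The intervals between inhibitors were as narrow as those against DMSO. They lay within a 2-fold change for 30 of 30 members in TAC against CSA, 29 in TAC against VCS and 30 in VCS against CSA, and the exception was FKBP1B. Within a 1.41-fold change they lay for 21, 25 and 27 members. Between VCS and its analog CSA the values ran from -0.13 (FKBP11) to 0.32 (FKBP1B), with FKBP10 at -0.12 (SE 0.13), FKBP9 at -0.13 (SE 0.16) and PPIA at 0.12 (SE 0.11, interval -0.13 to 0.36).

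The members nearest to a difference between TAC and CSA were PPIL3 at 0.27 (SE 0.13, interval -0.01 to 0.55), PPIL4 at 0.18 (SE 0.10), FKBP9 at -0.25 (SE 0.16) and FKBP10 at -0.17 (SE 0.13). Against VCS they were PPIL3 at 0.21 (SE 0.13), PPIE at 0.13 (SE 0.10), PPIB at -0.18 (SE 0.13) and FKBP1B at -0.38 (SE 0.31). Libraries did not overlap for 2 members in TAC against CSA, both higher in TAC libraries (13.6% of all tested genes in either direction). They were PPID, at 26.2, 24.2 and 25.1 CPM in TAC, against 24, 22.3 and 22.1 in CSA, and PPIG, at 97.4, 100.1 and 126.3 in TAC, against 94.8, 96.6 and 92.6 in CSA. In TAC against VCS (8.77%) and VCS against CSA (5.85%) 0 tested members did so.

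Against the mean of CSA and VCS, all 12 nuclear and spliceosomal members were above 0 in TAC, from 0.01 (PPIL2) to 0.24 (PPIL3, SE 0.11). Their median was 0.11, beside a median of 0.00 over all tested genes, of which 50.3% were above 0. Without the libraries numbered 3, 11 were above 0 and 1 rounded to 0.00, and without CSA replicate 3, 11 were above 0 and 1 below. None of the 12 passed. The 12 values come from the same libraries and are not independent of each other. Of 14 spliceosome proteins in the partner lists below, 7 were above 0 and 7 below in this comparison (median 0.01). The 8 endoplasmic reticulum members had 2 above 0 and a median of -0.12, with PPIB at -0.17 (SE 0.12) and FKBP9 at -0.19 (SE 0.14). That median was -0.05 without CSA replicate 3 and -0.04 without the libraries numbered 3, each with 3 of 8 above 0. Cyclophilins as a family had 13 of 16 above 0 (median 0.10) and FKBPs 6 of 14 (median -0.02). PPID was at 0.11 (SE 0.07).

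Genes that work with the immunophilins were counted in 8 lists, and none of their genes passed in any of the 8 comparisons. Of 7 calcineurin subunits and RCAN regulators, 4 were above 0 in CSA (median 0.03), 5 in TAC (0.07) and 7 in VCS (0.15). PPP3CC, a catalytic subunit, differed by -0.04, -0.14 and 0.15 and PPP3CA by 0.07, 0.07 and 0.17 in the same order. Of 15 genes of the HSP90 cycle and steroid receptors, 10, 10 and 11 were above 0 (medians 0.06, 0.06 and 0.04), with the heat shock genes HSPA1A at -0.04, -0.23 and -0.12 and HSPA1B at 0.20, -0.10 and 0.04. Of 8 glucocorticoid receptor targets other than FKBP5, 7, 7 and 7 were above 0 (medians 0.13, 0.23 and 0.09), with TSC22D3 at 0.34, 0.28 and 0.13 and ERRFI1 at 0.15, 0.38 and 0.16 (SE 0.13 each). Of 9 tested channels, receptors and the kinase that bind FKBP12, 8, 8 and 8 were above 0 (medians 0.15, 0.08 and 0.10), with ACVR1, a BMP type I receptor, at 0.26, 0.08 and 0.11 and RYR3, a ryanodine receptor, at -0.32, -0.06 and -0.46 (SE 0.23 each).

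Among 23 genes for folding collagen and secreted proteins, 19 were above 0 in CSA (median 0.12), 11 in TAC (0.00) and 17 in VCS (0.05). The highest was DNAJB9, an endoplasmic reticulum co-chaperone, with log2 fold changes of 0.54 in CSA, 0.26 in TAC and 0.50 in VCS (SE 0.12 each), with edgeR adjusted p-values of 0.708, 0.92 and 0.963. In TAC against CSA 20 of the 23 were below 0 (median -0.17), beside 50.6% of all tested genes above 0, and none passed. The lowest was SDF2L1, an endoplasmic reticulum stress gene, at -0.51 (SE 0.10, edgeR adjusted p = 0.271). Counts without CSA replicate 3 are not given for this list. For the 8 endoplasmic reticulum immunophilins, leaving that library out took the median in TAC against CSA from -0.14 to 0.00. Of 14 spliceosome proteins, 11, 11 and 9 were above 0 in CSA, TAC and VCS (medians 0.07, 0.10 and 0.07), with CRNKL1 at 0.11, 0.20 and 0.15 and XAB2 at 0.02, -0.10 and -0.11. Of 9 genes for the cyclophilin A receptor and mitochondrial pore proteins, 3, 7 and 4 were above 0 (medians -0.02, 0.03 and -0.01). BSG, the receptor of extracellular cyclophilin A, was at -0.02, -0.30 and -0.15, and ATP5PO, an ATP synthase subunit, at -0.19, 0.01 and -0.06. Of 4 tested other prolyl isomerases and FKBP-like proteins, 2, 1 and 3 were above 0 (medians 0.01, -0.10 and 0.01), with PIN4 at -0.31, -0.11 and 0.00 and PTPA at 0.24, 0.07 and 0.21.

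Within the groups, several members were high or low in the same library. The library numbered 3 was the highest of its group in all 4 groups for 7 of 30 members (12.5% of all tested genes) and the lowest in all 4 for 4 (10.9%). The 7 were FKBP11, PPWD1, NKTR, FKBP2, PPIC, PPIB and FKBP10, of which 5 belong to the endoplasmic reticulum set. The 4 were PPIL1, FKBP5, PPIF and FKBP4. Averaged over the groups on the log2 scale, the level in library 3 was 1.74 times that in libraries 1 and 2 for FKBP11, 1.39 for PPWD1, 1.36 for NKTR and 1.36 for FKBP2. It was 0.753 for PPIL1, 0.761 for FKBP5, 0.788 for FKBP4 and 0.791 for PPIF. These are descriptions with no test, looked at because earlier results of these data had shown that the libraries numbered 3 stood apart. The higher mitochondrial share of those libraries moves with the pattern, and its part was not tested.

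For all 30 tested members the largest fold between libraries of 1 group exceeded the fold between the highest and lowest group means. The first is the largest of 4 ranges of single libraries, and the second is a range of means of 3. Such an outcome is therefore likely for any gene without a large difference between groups. The share of all tested genes with this outcome is not given, so it marks nothing particular to the members. That fold between group means ran from 1.02 to 1.4 over the 30 members, with a median of 1.13, and was under 1.2 for 25. PPWD1, a spliceosomal cyclophilin with WD repeats, was at 28.4, 29.9 and 35.6 CPM in CSA, 28, 31.3 and 43.7 in TAC, 27.7, 25.1 and 40.9 in VCS, and 29.3, 35.3 and 43.5 in DMSO. PPIL1, another spliceosomal cyclophilin, was at 27.5, 24.1 and 17.3 CPM in CSA, 25.5, 27.7 and 22 in TAC, 26.2, 28.2 and 19.2 in VCS, and 22.4, 27.2 and 20.1 in DMSO. The 2 genes took opposite directions in library 3 of all 4 groups. PPIL1 shares exon sequence on the other strand with C6orf89, which held 43032 counts over all libraries against 9294 for PPIL1. Whether the counting used the strand is not stated, so reads of the 2 could not be told apart if it did not. The same limit holds for other members, since 16 have exon overlap on the other strand. For 2 members, PPIL1 and PPIL6, the overlapping genes held more counts than the member. For PPID the gene was ETFDH, at 6241 counts against 9322, and for FKBP3 it was PRPF39, at 17295 against 36207.

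Promoter windows are shown for 2 members that were highest in library 3 of every group, NKTR and PPWD1, and for 2 that were lowest, PPIF and PPIL1, so that members that move together or apart with the library can be compared. They are from RefSeq on GRCh38.p14, each from 250 bases before to 50 after the start, with the CCAAT motif, or ATTGG where it lies on the other strand, in capitals. The windows are chr3:42600436-42600735 on the plus strand for NKTR, chr5:65563046-65563345 on the plus strand for PPWD1, chr10:79347219-79347518 on the plus strand for PPIF and chr6:36874754-36875053 on the minus strand for PPIL1.
NKTR: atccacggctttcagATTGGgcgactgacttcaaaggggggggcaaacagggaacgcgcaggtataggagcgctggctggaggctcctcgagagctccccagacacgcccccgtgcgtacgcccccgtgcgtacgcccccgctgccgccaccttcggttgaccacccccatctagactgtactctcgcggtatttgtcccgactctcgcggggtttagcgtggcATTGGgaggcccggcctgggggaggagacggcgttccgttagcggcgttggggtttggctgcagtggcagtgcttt
PPWD1: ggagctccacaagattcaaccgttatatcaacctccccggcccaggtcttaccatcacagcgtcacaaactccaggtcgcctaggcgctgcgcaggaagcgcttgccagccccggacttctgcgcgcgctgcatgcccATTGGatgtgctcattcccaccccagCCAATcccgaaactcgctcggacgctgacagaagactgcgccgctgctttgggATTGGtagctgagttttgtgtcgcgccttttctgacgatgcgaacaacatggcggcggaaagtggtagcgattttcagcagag
PPIF: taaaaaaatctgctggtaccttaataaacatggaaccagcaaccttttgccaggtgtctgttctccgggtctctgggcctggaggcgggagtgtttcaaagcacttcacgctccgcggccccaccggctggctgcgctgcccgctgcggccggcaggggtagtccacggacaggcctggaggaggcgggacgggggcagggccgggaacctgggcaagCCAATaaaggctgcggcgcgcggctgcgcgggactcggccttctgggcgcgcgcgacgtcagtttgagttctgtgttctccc
PPIL1: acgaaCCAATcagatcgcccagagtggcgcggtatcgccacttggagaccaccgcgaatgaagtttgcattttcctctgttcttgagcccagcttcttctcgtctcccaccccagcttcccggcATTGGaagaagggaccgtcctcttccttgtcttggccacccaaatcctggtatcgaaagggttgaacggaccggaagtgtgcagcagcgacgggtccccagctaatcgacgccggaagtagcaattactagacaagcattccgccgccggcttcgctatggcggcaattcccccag
All 4 windows hold CCAAT, 2 times in NKTR, 3 times in PPWD1, 1 time in PPIF and 2 times in PPIL1. These 4 were picked and do not stand for the other members with the same patterns. Among members highest in library 3 of every group, the windows of FKBP11 and PPIC lack CCAAT and that of PPIB holds it. Some windows of FKBP2, and of FKBP5 among the lowest, hold it and some do not. A link of the motif with the pattern was not tested. None of the 4 printed windows holds TATAAA. The endoplasmic reticulum stress element, CCAAT and CCACG with 9 bases between them, was found on either strand in 0 of 33 member windows and in 0.0769% of all windows. FKBP4, FKBP8, FKBP10, FKBP14, FKBPL, PPIE and PPIG had no match in the promoter table.

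**Figure D4:**
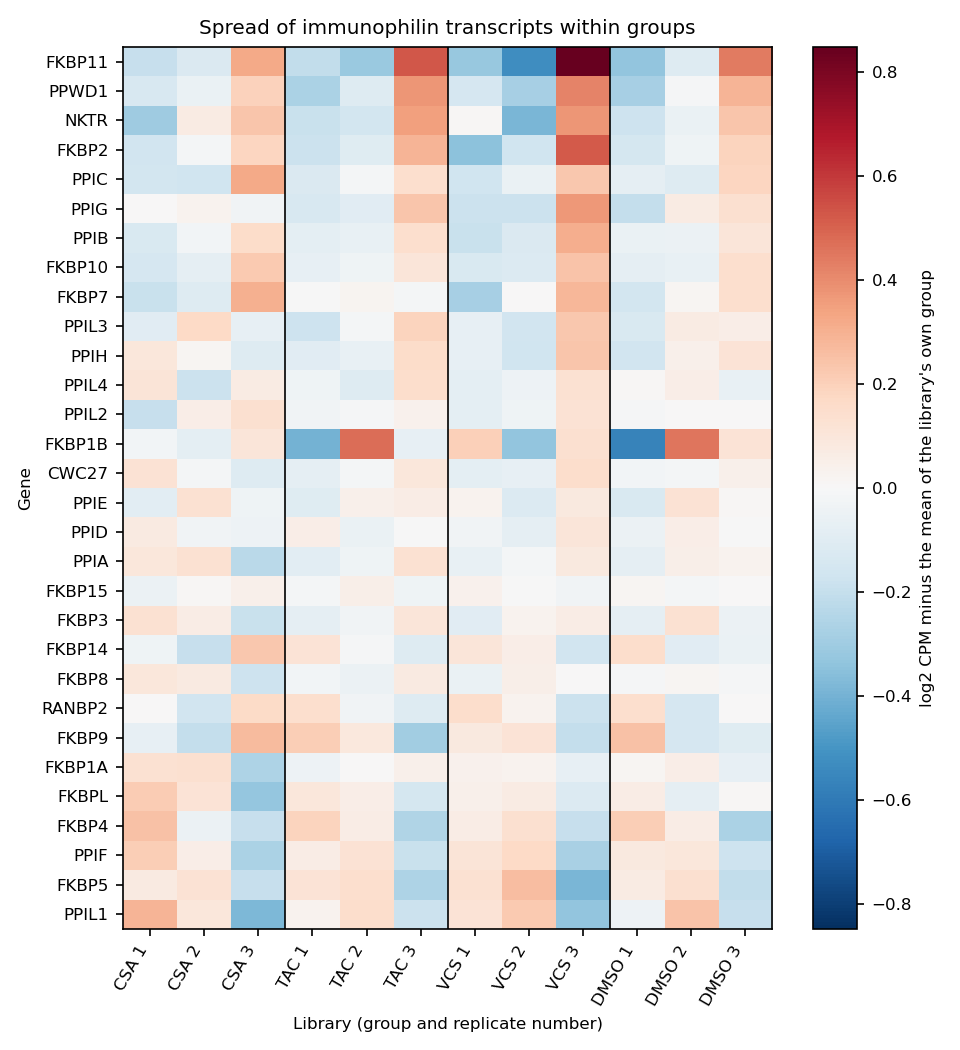
Log2 CPM of 30 tested members in each library minus the mean of that library's own group (colour; red is above, blue below), with members ordered by their mean deviation in library 3. FKBP11, PPWD1, NKTR and FKBP2 at the top are red in library 3 of all 4 groups, and PPIL1, FKBP5, PPIF and FKBP4 at the bottom are blue there.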

How the data were processed

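The 12 RNA-seq libraries were analysed from 1 table of gene counts. Per the labels' protocols, libraries were made from poly(A) RNA with spike-ins and in-line UMIs. The deposited values are estimated counts per gene, made by the authors with Salmon on GRCh38, per the submitters' processing notes, which give no version. They were already whole, so rounding changed nothing. Whether UMIs were collapsed and whether the counting used strand are not given in the sources used here, so intervals cover counting error and library spread only.

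Genes were filtered with filterByExpr of edgeR 4.0.16 (minimum count 10), given TMM factors, and tested by glmQLFTest after 1 quasi-likelihood fit to the 12 libraries, in which group was the sole term (8 residual degrees of freedom). Tests were two-sided and adjusted by Benjamini-Hochberg over 19784 genes. The procedure was also run on simulated counts drawn with no effect of replicate number, so that run does not cover such an effect. CPM were divided by merged exon length from GENCODE 29 for levels between genes. R 4.3.3, Python 3.11.15 and DESeq2 1.42.0 were used.

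The members, roles and partner lists were chosen with earlier results of these data known. Values in every library are given for FKBP1A, FKBP1B, FKBP5, PPIA, PPIB and PPIF, for any member past the threshold, and for the 2 members with the smallest p in each direction of a comparison. From each partner list the rule took genes past the threshold or the 2 with the smallest p over the 4 groups. FKBP11, PPIL1, PPIL2, PPIG and PPWD1 were given in more detail after their values were seen. The alternatives were RLE size factors, no filter, DESeq2, fits of the compared groups alone, a block for replicate number, each library left out, all libraries numbered 3 left out and robust estimation of the spread.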

Additional observations from a re-analysis of the deposited data

How the results depend on the processing

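No member passed in any of the 8 comparisons under any alternative. Of 3990 recomputed log2 fold changes of members, 179 changed sign with neither value called, all of them 0.25 or less in size in the fit reported, and 77 moved by more than 1 SE. The largest shift was 0.55, for FKBP11 in TAC against VCS without VCS replicate 3, and the smallest adjusted p was 0.194, for FKBP11 in VCS against DMSO without the libraries numbered 3. With 3 libraries a group, changes smaller than the intervals given could not be seen, and for FKBP1B, FKBP6 and PPIL6 low counts limit what can be said.

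The number of all genes called also moved between fits. Every such count is a small share of the tested genes, so 0 of 30 members does not show that the members are steadier than other genes. Against DMSO the fit reported called 2 genes for CSA, 7 for TAC and 1 for VCS, beside 6 in TAC against CSA, 5 in TAC against VCS, 2 in VCS against CSA, 9 in TAC against the mean of CSA and VCS, and 10 for any difference. In that order, no filter on low counts gave 86, 131, 69, 87, 101, 70, 115 and 285, and DESeq2 gave 9, 38, 7, 46, 40, 12, 55 and 73. Leaving out all libraries numbered 3 gave 0, 3, 1, 1, 9, 6, 13 and 7. Only the groups compared gave 2, 1, 0, 1, 0, 3 and 8, with no value for the last. Robust estimation gave 2, 7, 0, 5, 8, 1, 9 and 10, and RLE size factors changed no count. Leaving out 1 library at a time gave 0 to 2, 0 to 10, 0 to 8, 0 to 6, 0 to 12, 0 to 7, 3 to 10 and 1 to 23. The causes were not tested.

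With replicate number as a block the counts were 6, 41, 0, 65, 41, 6, 57 and 34, and 0 members passed; the smallest adjusted p of a member was 0.214, for FKBP5 in TAC against DMSO. The labels do not say what a number shares. Of 18 pairs of same-numbered libraries, 14 had a correlation of their deviations over 0.1 (lowest 0.00694, highest 0.532), and 11 of 12 libraries correlated best with their own number, which is a hint from the data and not from the design. All 3 pairs were over 0.1 for CSA with DMSO, for TAC with DMSO and for TAC with VCS. Unadjusted p-values under 0.05 under the block were reached by 5 members in CSA (FKBP4, FKBP9, FKBP14, NKTR and PPIL3; 11.4% of all tested genes), 3 in TAC (FKBP2, FKBP5 and FKBP11; 13.1%) and 4 in VCS (FKBP4, FKBP11, NKTR and PPWD1; 11%) against DMSO. They were 2 in TAC against CSA (15.9%), 1 in TAC against VCS (7.88%), 0 in VCS against CSA (6.29%), 2 in TAC against the mean (13.8%) and 4 for any difference (14%). Among the partner lists 1 gene, SDF2L1, passed under the block, in TAC against CSA (log2 -0.51, adjusted p = 0.0348).

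Without a correction for length, the ratio of PPIA to FKBP1A was 3.59 in CSA, 3.82 in TAC, 3.82 in VCS and 3.80 in DMSO, and that of cyclophilins to FKBPs 2.13, 2.30, 2.25 and 2.36. FKBP1A then made up 24.8, 27.1, 25.6 and 27.1% of the FKBP sum and PPIA 41.7, 45, 43.4 and 43.6% of the cyclophilin sum. With the longest transcript as length, the levels per kilobase were 182.1 for FKBP1A, 495.4 for PPIA, 403.4 for PPIB, 8.25 for FKBP5 and 82.5 for PPIF. These shifts follow from the lengths used.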
